A study of Rattus norvegicus with 9 samples.

Results

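CD68+ cells of the rat were examined for the ligands through which macrophages and dendritic cells costimulate or restrain T cells. The genes were Cd40, Cd80, Cd86, Icoslg, Cd83, Cd48, Cd274 and Pdcd1lg2, and they were taken by name as every probe set annotated with exactly 1 of these symbols. Of the 8 genes, 6 were measured, on 8 of 31099 probe sets, out of 14218 genes with such a probe set. Cd274 and Pdcd1lg2 were not matched to a probe set and were not analysed here. The animals were male Wistar rats, and their age is not given in the sources used here. Control cells were CD68+ mononuclear cells freshly isolated from blood. In vitro activated cells were blood CD68+ cells kept for 3 days on polytetrafluoroethylene coated with fibrinogen (FG). FBR cells were CD68+ cells released by enzymes from the foreign body reaction around patches of photo-oxidized bovine pericardium, 3 days after implantation in steel cages in the peritoneal cavity. All 3 groups went through magnetic CD68 selection, and each was measured on 3 arrays that the labels call biological replicates. The number of rats behind each array is not given, so p-values measure the spread between arrays only. Blood and in vitro activated cells differ in both FG contact and culture, and blood and FBR cells differ in site, digestion and biomaterial contact, so these cannot be told apart.

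A T cell needs, besides antigen, a second signal from the cell that presents it. CD80 and CD86 give that signal through CD28 and withdraw it through CTLA4, and ICOS ligand acts through ICOS on T cells that have already been primed. CD40 works in the other direction, as a receptor on the presenting cell that is triggered by CD40 ligand of the T cell and signals through TRAF proteins and NF-kB. CD83 marks mature dendritic cells and keeps CD86 and MHC class II on the surface, and CD48 is a membrane-anchored ligand of CD2 and CD244. PD-L1 and PD-L2, the products of Cd274 and Pdcd1lg2, inhibit T cells through PD-1.

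The values are MAS5 array signals, not log-transformed, and fold changes were fitted with limma on the log2 of the signal plus 16, which understates changes of dim genes. A gene was called higher or lower at an adjusted p under 0.05 over all probe sets, and genes with several probe sets were read on the brightest. Cd40 and Icoslg fell and Cd86 rose upon in vitro activation. In FBR CD68+ cells Cd40 stood near its blood level. Against blood, Icoslg was called higher on 1 of its 2 probe sets and Cd86 lower on 1 of its 2. That Cd86 call was lost under 8 of 21 alternatives. Against blood, 3 of the 6 genes were called in the in vitro activated cells, 1 higher and 2 lower, where 27.5% of all genes were called (15.4% higher, 12.2% lower). In FBR cells 2 of 6 were called against blood, 1 in each direction, where 33.8% of all genes were called (14.6% higher, 19.2% lower). Between FBR and in vitro activated cells 3 of 6 were called, 2 higher and 1 lower in FBR, where 25.6% of all genes were called (8.88% higher, 16.7% lower). All probe sets had a median log2 difference of 0.05, -0.17 and -0.24 in these comparisons, and median centring of the arrays moved it to 0.08, 0.19 and 0.10. With centring, 56.9% instead of 35.3% of the probe sets called between FBR and blood were higher, and 62.2% instead of 34.7% between FBR and in vitro activated cells. The median log2 fold change of the 6 genes was -0.05, 0.47 and 0.45 in the same order, beside 0.13, -0.09 and -0.23 for all genes.

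**Figure D1:**
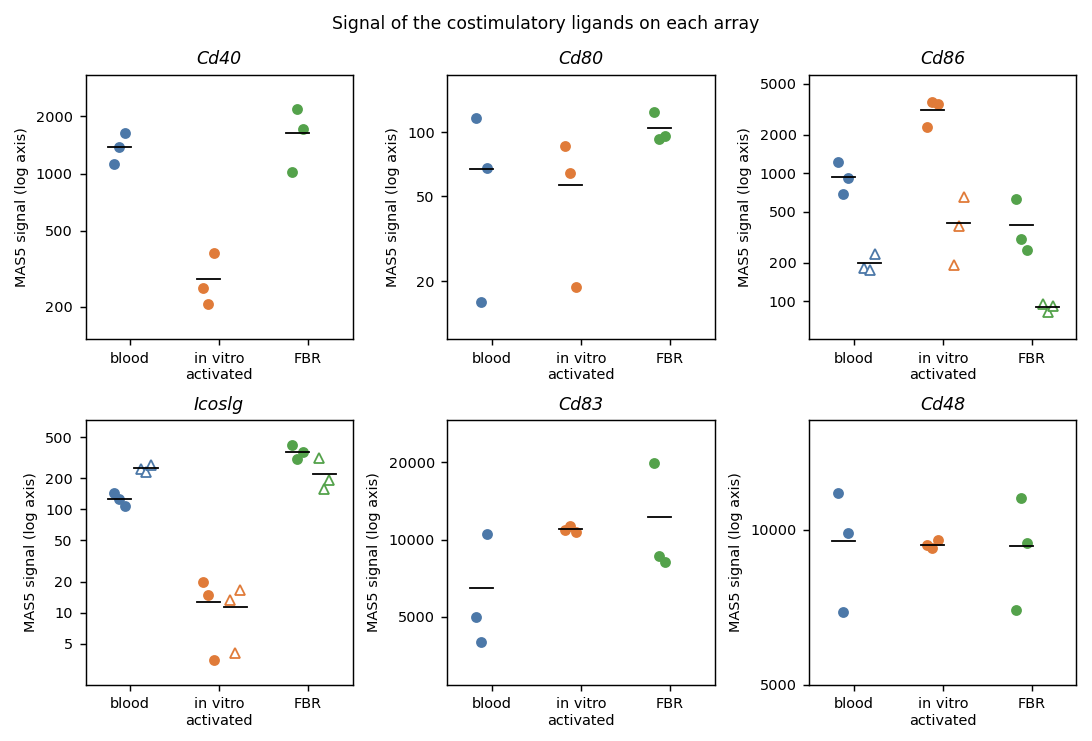
Array signal (log axis) of each measured ligand gene on the 3 blood, 3 in vitro activated and 3 FBR arrays. Filled circles are the brightest probe set, open triangles the second probe set of Cd86 and Icoslg, and black lines the means of 3 arrays. Cd86 ran from 2288 to 3632 in the in vitro activated cells and from 252 to 633 in FBR cells, and both Icoslg probe sets stood at or below 20 in the in vitro activated cells.

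Cd86, the costimulatory ligand of CD28 and CTLA4, gave signals of 1219, 693 and 918 in blood, 2288, 3632 and 3467 after in vitro activation, and 633, 309 and 252 in FBR cells. No array of 1 group overlapped with another group, the in vitro activated arrays being highest and the FBR arrays lowest. Of all genes, 43% did not overlap between in vitro activated and blood arrays, 51.7% between FBR and blood, and 46.3% between FBR and in vitro activated arrays. The in vitro activated cells exceeded blood by 1.72 on the log2 scale (SE 0.37, limma adjusted p = 0.0073), a 3.30-fold difference. FBR cells were below blood by a log2 fold change of -1.29 (95% interval -2.11 to -0.46, limma adjusted p = 0.023) and below the in vitro activated cells by -3.01 (limma adjusted p = 0.0005), an 8.04-fold difference. Under 8 of 21 alternatives the FBR value against blood was not called, with an adjusted p of up to 0.095. These were median centring, quantile normalization, the restored values left missing, the stricter threshold of 0.01, and the fits without FBR replicate 2 or 3 or without blood replicate 1 or 3. Where 1 array was left out, the difference lay between -1.67 and -1.03.

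The second Cd86 probe set, 1387627_at, kept the order of the group means. It read 184, 175 and 235 in blood, 194, 386 and 659 after in vitro activation and 95.3, 83.1 and 92.2 in FBR cells, so that in vitro activated replicate 1 lay within the blood range. Its difference between FBR and in vitro activated cells was -1.86 (limma adjusted p = 0.0062). Against blood it was 0.86 in the in vitro activated cells (limma adjusted p = 0.13) and -1.0 in FBR cells (limma adjusted p = 0.069), neither of which was called.

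Cd80, the other ligand of CD28 and CTLA4, was dim and scattered. Its signal was 117, 16 and 67.8 in blood, 86.1, 64.7 and 18.7 in the in vitro activated cells and 125, 93.4 and 96.2 in FBR cells. The lowest blood array and the lowest in vitro activated array stood apart from the rest of their groups, while the FBR arrays lay close together. None of the 3 differences was called, at -0.11 (95% interval -1.28 to 1.06) for in vitro activation, 0.76 (-0.41 to 1.93) for FBR against blood and 0.87 (-0.30 to 2.04) for FBR against in vitro activated cells. In the last, all 3 FBR arrays were above all in vitro activated arrays, where 46.3% of all genes did not overlap in either direction. A Cd80 change as large as that of Cd86 upon activation was outside the first interval but inside both others.

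Icoslg, the ligand of ICOS, was dimmest in the in vitro activated cells. On probe set 1374558_at its signal was 143, 127 and 108 in blood, 20, 14.9 and 3.46 after in vitro activation and 423, 309 and 356 in FBR cells. The 3 groups did not overlap, with the in vitro activated cells lowest and the FBR cells highest. The in vitro activated cells were below blood by a log2 fold change of -2.34 (SE 0.28, limma adjusted p = 0.00028). FBR cells exceeded blood by 1.41 (95% interval 0.79 to 2.04, limma adjusted p = 0.0034) and the in vitro activated cells by 3.75 (limma adjusted p = 3.5e-05). The in vitro activated signals lay far below the array median of 87 to 110, so that the pseudocount set the size of both differences from that group, which were -3.46 and 4.98 with a pseudocount of 1 and -1.31 and 2.47 with 64, called in each case.

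The second Icoslg probe set, 1374723_at, gave the same low level after in vitro activation but no higher level in the FBR. It read 244, 232 and 270 in blood, 13.2, 4.11 and 16.6 in the in vitro activated cells and 314, 159 and 191 in FBR cells. The FBR arrays lay on both sides of the blood arrays, and their difference was -0.21 (95% interval -0.87 to 0.45, limma adjusted p = 0.66). Against blood the in vitro activated cells differed by -3.30 (limma adjusted p = 6.3e-05), and FBR cells exceeded them by 3.09 (limma adjusted p = 0.00013), sizes that were -4.52 and 4.29 with a pseudocount of 1 and -2.06 and 1.89 with 64. The higher Icoslg level in FBR cells than in blood therefore rested on 1 of 2 probe sets, and it was not called when the probe sets were averaged or with a pseudocount of 1 (highest adjusted p 0.092).

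Cd40, the receptor for CD40 ligand, fell upon in vitro activation and stood near its blood level in FBR cells. Its signal was 1131, 1381 and 1641 in blood, 250, 206 and 381 after in vitro activation and 1022, 2184 and 1709 in FBR cells. All in vitro activated arrays were below all others, whereas the FBR arrays spanned the blood range. The log2 difference from blood was -2.28 in the in vitro activated cells (SE 0.34, limma adjusted p = 0.00093), a 4.84-fold lower level, and 0.19 in FBR cells (95% interval -0.56 to 0.94, limma adjusted p = 0.73). FBR cells exceeded the in vitro activated cells by 2.47 (95% interval 1.72 to 3.22, limma adjusted p = 0.00085), which is 5.52-fold.

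Cd83, a product of mature dendritic cells, was bright on every array. The signal was 4976, 3974 and 10494 in blood, 10943, 11253 and 10732 in the in vitro activated cells and 19938, 8631 and 8157 in FBR cells. Blood replicate 3 stood close to the in vitro activated arrays and above the lower FBR arrays, and FBR replicate 1 was highest of all. The differences were 0.89 (95% interval -0.05 to 1.83, limma adjusted p = 0.16) for in vitro activation, 0.92 (-0.02 to 1.86, limma adjusted p = 0.13) for FBR against blood and 0.03 (-0.91 to 0.97) between FBR and in vitro activated cells. Without blood replicate 3 the differences from blood were 1.3 and 1.33 and both were called (limma adjusted p = 0.047 and 0.035). With median centring the difference between FBR and blood was 1.28 and called too (limma adjusted p = 0.037). Every in vitro activated array exceeded every blood array, by a narrow margin (10732 against 10494). Of all genes, 43% did not overlap between these 2 groups, in either direction.

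Cd48, the ligand of CD2 and CD244, had nearly the same mean signal in the 3 groups. Its signal was 11762, 6928 and 9829 in blood, 9347, 9192 and 9527 in the in vitro activated cells and 6968, 11540 and 9407 in FBR cells. The in vitro activated arrays lay inside the range of both other groups. The log2 differences were 0.01 (95% interval -0.61 to 0.63), -0.03 (-0.65 to 0.59) and -0.04 (-0.66 to 0.58) for in vitro activation, FBR against blood and FBR against in vitro activated cells, so that a change of the size seen in Cd40 or Icoslg upon activation lay outside the interval. On the brightest probe sets, then, limma called every pair of groups for Cd86 and Icoslg, both pairs with the in vitro activated cells for Cd40, and 0 pairs for Cd80, Cd83 and Cd48.

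**Figure D2:**
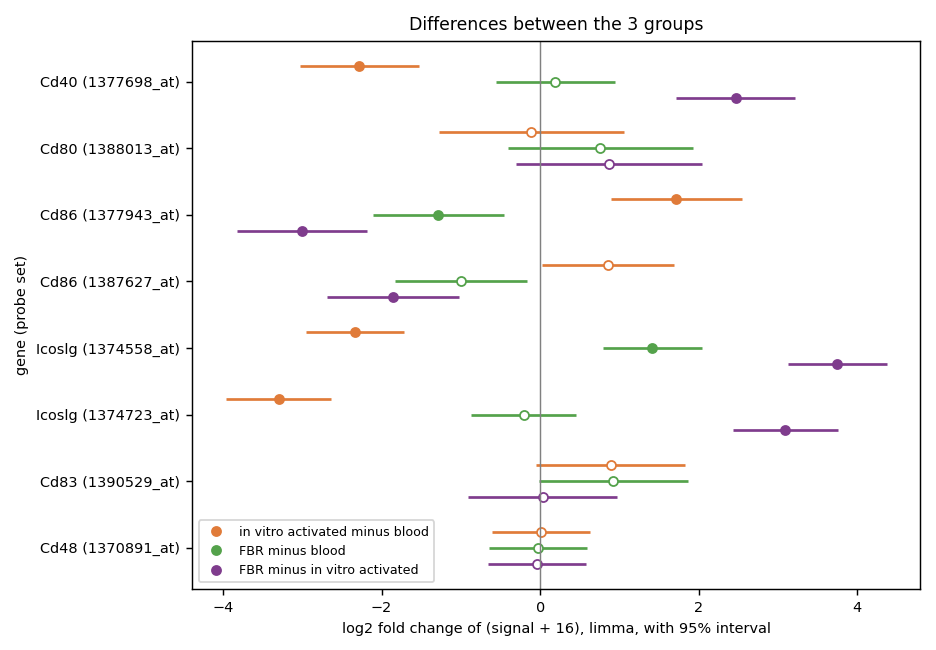
Log2 fold change of the signal plus 16 for each probe set of the 6 genes in the 3 comparisons, with the 95% interval from limma. Filled points were called at an adjusted p under 0.05 and open points were not, and the values for FBR against in vitro activated cells reached from -3.01 for Cd86 to 3.75 for Icoslg.

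Single arrays moved several of these genes. Blood replicate 2 had the lowest blood signal of Cd86, Cd80, Cd83 and Cd48 and also the lowest summed signal of macrophage and monocyte markers, 36553 beside 67793 and 57361. FBR replicate 1 had the highest FBR signal of Cd86, Cd83, Cd80 and Icoslg and the lowest of Cd40 and Cd48. Its summed fibroblast and mesothelial marker signal was 2480 beside 987 and 998 on the other FBR arrays. The part of these differences in the results was not tested, and the values without each array are those given above and under the processing alternatives.

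The promoters of 4 of these genes are shown because their windows differ in the motifs they hold. Each window runs from 250 bases before to 50 bases after the RefSeq start site on GRCr8, 5′ to 3′ on the gene's strand, and capitals mark a match to any of 5 motifs searched on both strands. The motifs were the NF-kB site, AP-1 (TGANTCA), the interferon-gamma activated site GAS (TTCNNNGAA), the interferon response element and PU.1 (GAGGAAGT).
Cd86 (chr11:77669031-77669330, plus strand): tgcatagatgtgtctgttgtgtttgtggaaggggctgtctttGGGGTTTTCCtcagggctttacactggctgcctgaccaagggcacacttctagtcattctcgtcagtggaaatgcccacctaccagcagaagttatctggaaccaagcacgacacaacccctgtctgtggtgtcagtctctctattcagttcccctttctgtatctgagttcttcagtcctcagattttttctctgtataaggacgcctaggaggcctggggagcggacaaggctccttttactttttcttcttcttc
Cd83 (chr17:21112628-21112927, minus strand): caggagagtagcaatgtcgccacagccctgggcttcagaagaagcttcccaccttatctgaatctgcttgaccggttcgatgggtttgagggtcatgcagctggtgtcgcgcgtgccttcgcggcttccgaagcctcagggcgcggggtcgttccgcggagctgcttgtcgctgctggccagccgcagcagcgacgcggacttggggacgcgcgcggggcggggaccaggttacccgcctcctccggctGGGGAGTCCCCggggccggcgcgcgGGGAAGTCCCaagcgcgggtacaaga
Cd48 (chr13:86717744-86718043, plus strand): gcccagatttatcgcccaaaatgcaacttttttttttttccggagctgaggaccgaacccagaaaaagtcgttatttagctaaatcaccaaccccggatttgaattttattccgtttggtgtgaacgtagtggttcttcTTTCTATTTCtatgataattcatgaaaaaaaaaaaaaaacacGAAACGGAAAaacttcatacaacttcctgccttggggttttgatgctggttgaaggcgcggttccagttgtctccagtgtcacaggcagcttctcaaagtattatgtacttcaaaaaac
Icoslg (chr20:10610316-10610615, minus strand): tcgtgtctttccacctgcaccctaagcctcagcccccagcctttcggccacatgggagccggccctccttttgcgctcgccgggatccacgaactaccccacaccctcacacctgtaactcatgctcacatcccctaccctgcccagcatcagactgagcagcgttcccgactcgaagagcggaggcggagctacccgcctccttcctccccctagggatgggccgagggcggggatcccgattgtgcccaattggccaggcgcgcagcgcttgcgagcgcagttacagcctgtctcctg
The Cd86 window held 1 NF-kB match, first base at -208 from the start site. The Cd83 window held 3, at -1, 1 and 25, of which the first 2 overlap. Cd48 held interferon response elements at -111 and -69, the former on the opposite strand. Icoslg held no match in this window, nor in a second RefSeq window that overlaps it, which says only that these letters are not there. Among 33469 promoter windows of the rat, 7.51% held an NF-kB match, 7.33% AP-1, 8.87% GAS, 3.92% the interferon response element and 2.42% PU.1. Of the 8 genes, 7 had windows, 9 in all, and 5 windows held a match. Cd40 had no window. Cd80, which is not shown, held a GAS match at -73 in window 1 and an interferon response element at -207 in window 2. A link between motifs and the response of the genes was not tested. A match is a description of the letters and no evidence of binding.

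Markers of other cells moved with the groups. For the counts of markers called, the shares over all genes were 15.4% higher and 12.2% lower than in blood upon activation. In FBR cells they were 14.6% and 19.2%. In bulk RNA, fewer cells of a type and less RNA per cell cannot be told apart. Cd68, on which the cells were selected, gave 11741, 3524 and 8450 in blood, 23892 to 38245 in the in vitro activated and 20075 to 24802 in FBR cells. Blood CD68+ cells also carried strong B cell signals, with Ms4a1, which encodes CD20, at 12497 to 16481 in blood, 140 to 717 in the in vitro activated and 8.45 to 32.7 in FBR cells. The summed signal, taken over the markers with a value on every array, of 11 B cell markers was 59125 to 81626 in blood, 6809 to 13399 in the in vitro activated and 2397 to 4743 in FBR cells, with 10 and 11 of the 11 called lower than in blood. B cells express CD40, CD86, ICOS ligand and CD48 too, as background. Cd40 stood near its blood level in FBR cells and lower in the in vitro activated cells. The B cell sum was below blood in both and lowest in FBR cells. Which cells carried the blood signal of these genes was not tested.

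Of 14 T cell markers 8 were lower after in vitro activation and 11 in FBR cells than in blood, and of 11 NK cell markers 8 and 9. Their summed signals were 6329 to 10421 and 3398 to 8962 in blood and at most 2552 and 798 elsewhere. The T cell marker Cd3e read 123, 624 and 180 in blood and at most 19.1 on the other arrays that had a value. Dendritic cell markers summed to 4423 to 7260 in blood, 3389 to 4961 in the in vitro activated and 8047 to 10407 in FBR cells. Of the 7 dendritic cell markers 0 were higher and 3 lower upon activation, and 2 were higher and 3 lower in FBR cells than in blood. Upon activation 1 was lower without blood replicate 1 or 3 or in vitro activated replicate 1 or 3. In FBR cells 0 were higher without any 1 FBR array, blood replicate 2 or in vitro activated replicate 2, and 1 was higher without blood replicate 3 or in vitro activated replicate 1 or 3, while 1 was lower without FBR replicate 3. The FBR sum rested mostly on Clec10a, a lectin that macrophages also express, singled out after its values were seen, at 8382, 6596 and 6173 in FBR cells and 3485, 1283 and 1730 in blood. Flt3, another dendritic cell marker of the list, was at 6 to 89.3 on all arrays. Macrophage and monocyte markers summed to 36553 to 67793 in blood, 74704 to 114464 in the in vitro activated and 95896 to 119945 in FBR cells. Of 13, 4 and 8 were higher than in blood and 2 were lower in each, where 1 was lower upon activation without any 1 FBR array or blood replicate 2 or 3, and in FBR cells without FBR replicate 2 or blood replicate 1 or 3. The 8 were 6 to 9 with single arrays left out, being 6 without FBR replicate 2, and 5 with quantile normalization. With restored values left missing, 0 were higher upon activation and 3 in FBR cells. Neutrophil markers summed to 578 to 2222, 207 to 775 and 2292 to 3055, with 0 of 6 higher than blood in either group and 1 lower upon activation. That count was 0 to 3 with single arrays left out, being 3 without blood replicate 2, 2 without in vitro activated replicate 3 and 0 without any other array, and 1 was higher in FBR cells than in blood without blood replicate 1 or 3. Fibroblast and mesothelial markers summed to 339 to 433, 542 to 1201 and 987 to 2480, with 2 and 6 of 13 higher than in blood. The 2 were 0 without blood replicate 2 and 1 without blood replicate 1 or 3 or in vitro activated replicate 1 or 3, and the 6 were 3 without FBR replicate 1 or blood replicate 1 and 10 with median centring. Endothelial and platelet markers summed to 7057 to 14491, 4537 to 9174 and 14342 to 21480, over 6 of the 9 measured. The FBR sums were mostly Pf4, at 21089, 17683 and 13988 in FBR cells and 3947, 3914 and 6469 in blood. Hbb gave 9345 of the highest blood sum. Of the 9, 5 were lower than in blood in each group, and 1, Pf4, was higher in FBR cells. Without blood replicate 1, 3 were lower in FBR cells. Without in vitro activated replicate 3, 1 was higher upon activation. The part of these markers in the differences of the ligands was not tested.

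**Figure D3:**
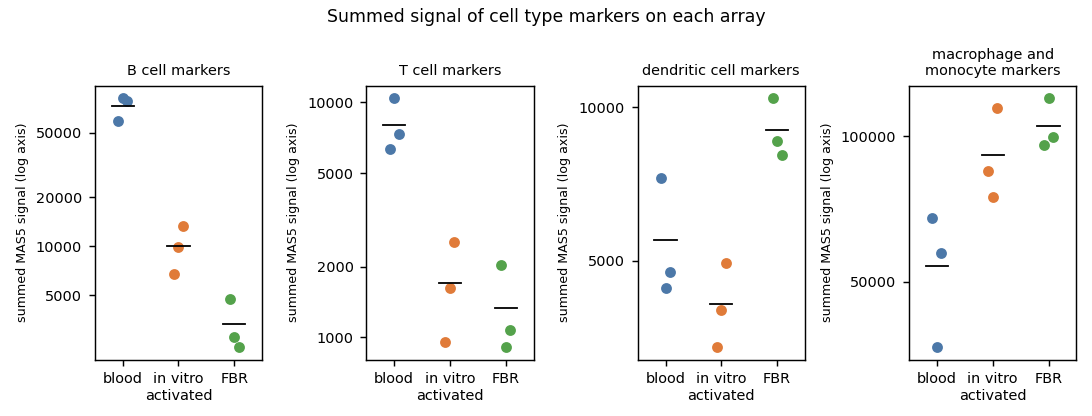
Summed array signal (log axis) of B cell, T cell, dendritic cell and macrophage and monocyte markers on each array, with black lines at the mean of 3 arrays. B cell sums were 59125 to 81626 in blood and at most 13399 elsewhere, and macrophage and monocyte sums were lowest in blood.

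Among 7 measured genes of other B7 and tumor necrosis factor family ligands, 3 were higher and 1 lower upon in vitro activation, and 4 were higher and 1 lower in FBR cells than in blood. Between FBR and in vitro activated cells 2 were higher and 0 lower, and 1 was higher without FBR replicate 2 or 3 or in vitro activated replicate 2. Over all genes, 15.4% were higher and 12.2% lower upon activation. In FBR cells the shares were 14.6% and 19.2% against blood, and 8.88% and 16.7% against in vitro activated cells. Tnfsf9, which encodes the costimulatory 4-1BB ligand, rose from 68.1, 61.7 and 86.1 in blood to 652, 431 and 468 after activation and 3256, 3750 and 3519 in FBR cells. The groups were far apart, and the log2 differences were 2.59 (limma adjusted p = 7.8e-05) and 5.33 (limma adjusted p = 1.5e-06) from blood and 2.75 between FBR and in vitro activated cells (limma adjusted p = 8.6e-05). Cd276, which encodes B7-H3, was higher in both by 3.09 and 2.39 (limma adjusted p = 3.3e-05 and 7.4e-05), from 62.5 to 85.4 in blood to 680 to 854 and 362 to 540. Vsir, encoding the inhibitory ligand VISTA, was higher by 1.41 and 1.80 (limma adjusted p = 0.0088 and 0.0017). Tnfrsf14, whose product HVEM binds BTLA on lymphocytes, was lower, at log2 fold changes of -6.10 and -3.60 (limma adjusted p = 8.6e-05 and 0.0018), from 3658 to 14063 in blood to 49.4 to 175 in the in vitro activated cells. FBR replicate 1 had no usable Tnfrsf14 value, and the difference of FBR from in vitro activated cells (2.5) lost its call in 4 of 21 alternatives.

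Of 12 other inhibitory and adhesion ligands measured, 4 were higher and 3 lower upon activation, 6 higher and 2 lower in FBR cells than in blood, and 6 higher and 2 lower in FBR cells when set against the in vitro activated cells. Without blood replicate 2, or without in vitro activated replicate 1, 2 were higher upon activation, and without FBR replicate 2 or 3, 4 were higher and 1 lower in FBR cells when set against the in vitro activated cells. Without FBR replicate 2 or 3, or blood replicate 2 or 3, 5 were higher and 1 lower in FBR cells than in blood. The shares over all genes were 15.4% higher and 12.2% lower upon activation. They were 14.6% and 19.2% in FBR cells against blood, and 8.88% and 16.7% against in vitro activated cells. Pvr, which encodes the CD155 ligand of TIGIT and CD226, gave 38.3 to 127 in blood, 762 to 1159 after activation and 4403 to 4784 in FBR cells. Its log2 differences from blood were 3.35 and 5.6 (limma adjusted p = 0.00013 and 4.9e-06). Lgals3, encoding galectin-3, was higher by 3.26 and 2.82 (limma adjusted p = 0.0013 and 0.002). Icam1, the adhesion ligand of LFA-1, was 21333 to 26552 in FBR cells and 733 to 1823 in blood, a difference of 4.23 (limma adjusted p = 3.5e-05), and it was not called upon activation (1.02, limma adjusted p = 0.078).

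The next genes of that list fell in the in vitro activated cells. Lgals9, encoding galectin-9, a ligand of TIM-3, was at 392 to 784 in blood, 17.0 to 107 in the in vitro activated and 1017 to 2031 in FBR cells. It was lower upon activation, at a log2 fold change of -3.33 (limma adjusted p = 0.00086) and higher in FBR cells when set against the in vitro activated cells by 4.40 (limma adjusted p = 0.00027). Its difference between FBR and blood was 1.07 and not called (limma adjusted p = 0.13). The groups did not overlap, as held for 43% of all genes between in vitro activated and blood arrays. The share was 51.7% between FBR and blood, and 46.3% between FBR and in vitro activated arrays. Icam2, another ligand of LFA-1, was lower upon activation, at a log2 fold change of -2.42 (limma adjusted p = 0.0024), and Cd24, which B cells also express, was lower in both, at -3.82 and -4.34 (limma adjusted p = 0.0012 and 0.0004), with no usable value for blood replicate 1. Lgals9 and Icam2 thus had the low in vitro activated level that Cd40 and Icoslg also had, in values that share the same 3 arrays.

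**Figure D4:**
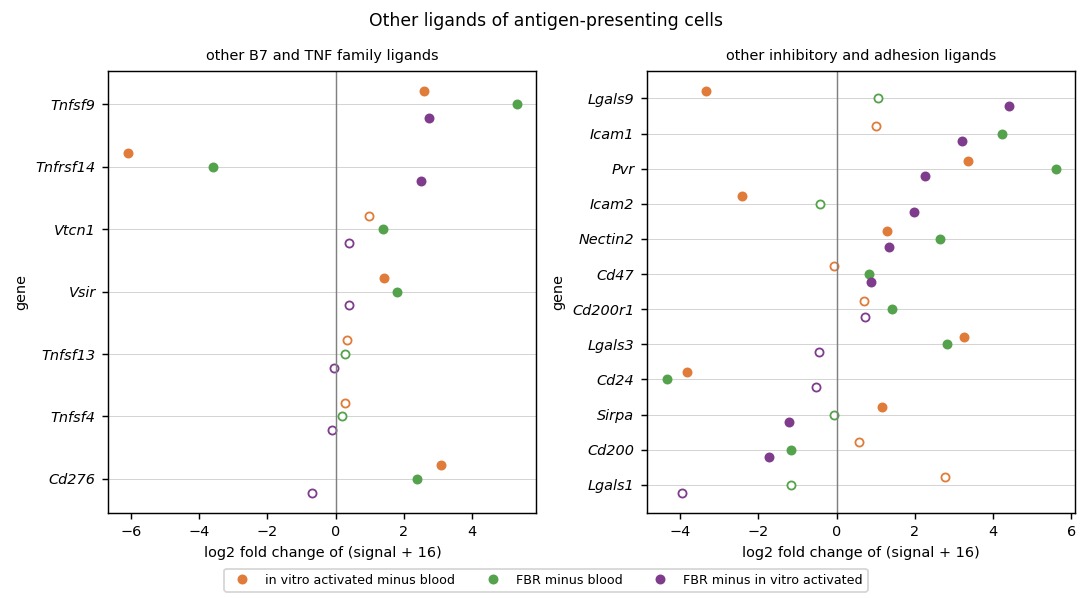
Log2 fold change of the signal plus 16 of other measured ligand genes in the 3 comparisons, in 2 panels for the B7 and tumor necrosis factor family and for inhibitory and adhesion ligands. Filled points were called at an adjusted p under 0.05. Tnfsf9 and Pvr reached 5.33 and 5.6 in FBR cells against blood, and Tnfrsf14 -6.10 upon in vitro activation.

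Of the genes of CD40 and NF-kB signaling, those called in FBR cells were mostly higher. Of 15 measured, 9 were higher and 1 lower than in blood, where 14.6% of all genes were higher, and 10 were higher and 0 lower than in the in vitro activated cells, where 8.88% were higher. Upon in vitro activation 1 was higher and 4 were lower, where 15.4% of all genes were higher and 12.2% lower. The list median was -0.61, 1.97 and 2.20 for activation, FBR against blood and FBR against in vitro activated cells. With the restored values left missing, 4 were called higher in FBR cells than in either other group.

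Nfkb2, which encodes the p100 precursor of the NF-kB route that CD40 uses, was 775, 311 and 776 in blood, 381, 450 and 289 in the in vitro activated and 4864, 6246 and 5510 in FBR cells. The FBR arrays were above all others, by 3.23 and 3.85 over blood and in vitro activated cells (limma adjusted p = 0.00012 and 0.00011). Relb, its partner subunit, was higher by 2.88 and 2.22 (limma adjusted p = 9.6e-05 and 0.00096). Nfkbia, encoding the inhibitor IkB-alpha, was higher than in blood by 3.54 (limma adjusted p = 0.00076), and only 1 in vitro activated array had a usable value. Birc3, which encodes a ubiquitin ligase recruited to TRAF2, was 1956 to 4140 in blood, 395 to 546 in the in vitro activated and 9218 to 10861 in FBR cells. It differed from blood by -2.65 and 1.73 (limma adjusted p = 0.0002 and 0.0016) and between FBR and in vitro activated cells by 4.37 (limma adjusted p = 2.2e-05). Traf5, an adaptor that binds CD40 and is also used by B cells, was lower in both, at -3.26 and -4.04 (limma adjusted p = 8.9e-05 and 1.7e-05). Traf6, another CD40 adaptor, was lower upon activation, at a log2 fold change of -1.49 (limma adjusted p = 0.0031). Bcl2a1, which encodes a survival protein, was higher by 1.46 and 2.07 (limma adjusted p = 0.0062 and 0.00063). In FBR cells against blood 5 of the 15 were not called, Traf2 (0.05), Traf3 (-0.47), Traf6 (-0.15), Map3k14 (-0.52) and Nfkb1 (0.66). Traf1 was higher by 2.64. The rise against blood thus did not extend to most of the TRAF adaptors listed.

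The interferon-gamma route, which raises CD40 and MHC class II in macrophages, was read on 16 genes. Of these, 0 were higher and 6 lower upon in vitro activation, 6 higher and 1 lower in FBR cells than in blood, and 8 higher and 0 lower in FBR cells when set against the in vitro activated cells. Of all genes, 12.2% were lower upon activation, and 14.6% and 8.88% were higher in FBR cells in the other 2 comparisons. Upon activation 3 were lower without blood replicate 3 or without in vitro activated replicate 1 or 2, and in FBR cells 3 were lower than in blood without FBR replicate 1 or with quantile normalization, and 2 without in vitro activated replicate 3. Other fits moved that count to between 0 and 4. With the restored values left missing, 1 was lower upon activation, and 3 were higher in FBR cells than in either other group. Cxcl10, an interferon-induced chemokine, was 111 to 277 in blood, 41.6 to 105 in the in vitro activated and 2896 to 3636 in FBR cells, and was higher in FBR cells by 4.01 and 5.22 (limma adjusted p = 3.6e-05 and 2.4e-05). Irf1, a transcription factor of this route, was 2024 to 3815, 584 to 892 and 5549 to 5829, with differences of -2.06 upon activation and 2.97 between FBR and in vitro activated cells (limma adjusted p = 0.00073 and 0.00014). Gbp2, an interferon-induced GTPase, was lower upon activation, at a log2 fold change of -1.98 (limma adjusted p = 0.0014). In FBR cells against blood 9 of the 16 were not called, among them Gbp2 (0.52), Cxcl9 (-1.10), Ido1 (-0.26) and Socs1 (-0.54). Ciita, the activator of MHC class II genes, was 4194 to 4518 in blood and 164 to 734 and 156 to 205 in the other groups, lower, at log2 fold changes of -3.53 and -4.51 (limma adjusted p = 0.00031 and 5e-05), and B cells express it as well. Socs3, a feedback inhibitor of cytokine signaling, and Ifngr2, a chain of the interferon-gamma receptor, were higher in FBR cells than in blood by 2.23 and 2.34 (limma adjusted p = 0.0028 and 0.0005).

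**Figure D5:**
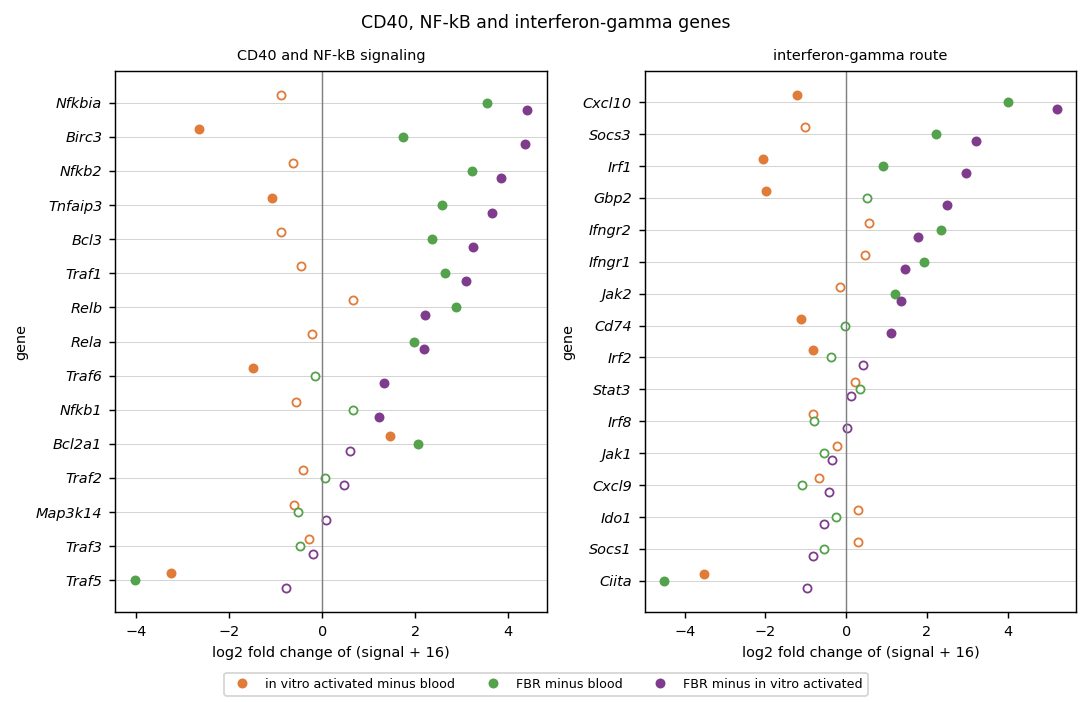
Log2 fold change of the signal plus 16 of measured genes of CD40 and NF-kB signaling and of the interferon-gamma route, 1 row per gene and 1 point per comparison. Filled points were called at an adjusted p under 0.05. In FBR cells 9 of 15 and 6 of 16 genes were higher than in blood.

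Genes listed for the turnover and release of ligands were read on 9 probe sets, 1 per gene. The list includes Spp1, which encodes a secreted protein. Of these 5 were higher and 0 lower upon activation, 5 higher and 1 lower in FBR cells than in blood, and 1 higher and 2 lower in FBR cells when set against the in vitro activated cells. In the last, 1 was lower without FBR replicate 2 or 3 or in vitro activated replicate 1 or 3. The shares over all genes were 15.4% higher and 12.2% lower upon activation. They were 14.6% and 19.2% in FBR cells against blood, and 8.88% and 16.7% against in vitro activated cells. Marchf1, which encodes the ubiquitin ligase that removes CD86 and MHC class II from the surface, was 6905, 11345 and 8388 in blood, 6545, 5839 and 4772 in the in vitro activated and 1458, 1697 and 1524 in FBR cells. FBR cells were thus lowest both in Marchf1 and in Cd86 transcript, with Marchf1 differing by -2.47 from blood and -1.85 from in vitro activated cells (limma adjusted p = 8.1e-05 and 0.00092). Marchf8, a related ligase, was higher in both by 2.00 and 1.87 (limma adjusted p = 0.00059 and 0.00057), without a usable value for blood replicate 2. Adam17, a sheddase of membrane proteins, was higher by 1.83 and 1.40 (limma adjusted p = 0.002 and 0.0064), and Hgs, a sorting protein of endosomes, was higher in FBR cells than in blood by 1.98 (limma adjusted p = 0.00077). Spp1, encoding the secreted protein osteopontin, was 21.4 to 878 in blood and 30730 and 54591 on the in vitro activated arrays with a value (8.25, limma adjusted p = 0.0012). In FBR cells Spp1 was 5700, 1459 and 967, higher than in blood by 3.91 (limma adjusted p = 0.022), a call lost in 6 of 21 alternatives.

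The genes whose pattern over the 9 arrays was most like each ligand were sought among 7752 genes with a group mean signal of at least 200, by Pearson's r of log2 values. On the brightest probe sets they were Nfkbiz (0.99), Fbxo11 (0.99) and Ccnl1 (0.98) for Icoslg and Ergic2 (0.98), Ahsa1 (0.98) and Syncrip (0.97) for Cd86. The second probe sets gave other genes, Nisch (0.99), Ypel3 (0.99) and Itgb7 (0.98) for Icoslg and Nek7 (0.98), Ift70a1 (0.97) and Parp1 (0.97) for Cd86. For Cd40 they were Rbm39 (0.98), Setd1a (0.97) and Kansl3 (0.97). For Cd80 they were Ankrd33b, Mllt1 and Nfix, each at 0.95. Cd83 was most like Ten1 (0.95), Card10 (0.90) and Fcrl2 (0.89), and Cd48 like Tmed5 (0.93), Chmp1b (0.84) and Dusp7 (0.82). The 9 arrays fall into 3 groups, so these values mainly describe likeness of group levels.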

How the data were processed

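The authors hybridized amplified RNA of CD68+ cells to Rat Genome 230 2.0 arrays and deposited the MAS5 signal of each probe set, which is an intensity that was not log-transformed. Per the labels RMA was used for their comparisons. Their 3 comparison tables hold log2 fold changes and adjusted p-values and were not used here.

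In the deposited table, signals with 3 decimals had lost the decimal point and some stood as dates. Of 279891 values 233544 (83.4%) were kept, 43241 (15.4%) were divided by 1000, 184 (0.0657%) were read back from dates and 2922 (1.04%) with more than 1 reading were left missing. Of the 72 values of the ligand genes 58 were kept and 14 had the point restored. Arrays of the same group then correlated at 0.931 to 0.976 (0.750 to 0.814 as deposited), and arrays of different groups at 0.796 to 0.899. The median signal was 97.3 to 103 in blood, 87.0 to 110 in in vitro activated and 69.5 to 77.3 in FBR cells. The number of arrays limits the precision.

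Probe sets with exactly 1 symbol (20832, with 436 carrying several and 9831 none) were named, and 14218 genes were read on their brightest probe set, by the mean over all arrays. Log2 of the signal plus 16 was fitted with limma 3.58.1 in R 4.3.3 (lmFit and eBayes, all 9 arrays, 1 mean per group), with Benjamini-Hochberg adjustment over 31099 probe sets. The comparison of FBR with in vitro activated cells equals the difference between their changes from blood. An exact permutation test of 3 against 3 arrays cannot give a p below 0.1 and was not used. The fit was tested on simulated data. Besides the ligands, up to 3 genes with the largest called change per direction and comparison of each list, defining cell markers and the 3 most alike genes could be named. Other list genes named above were added after their values were seen. The ligand genes and all lists were chosen with earlier results of these data known. Alternatives were other pseudocounts (1 and 64), a low signal filter, other normalizations, other fits, the replicate block, a gene's probe sets averaged, restored values left missing, a threshold of 0.01 and each array left out in turn.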

Additional observations from a re-analysis of the deposited data

Results flagged for a closer look

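For 3 genes the change from blood in FBR cells differed from the change upon in vitro activation, which share the blood arrays. This difference equals FBR minus in vitro activated cells, and limma tested it. It was 2.47 on the log2 scale for Cd40 (adjusted p = 0.00085), whose changes from blood were 0.19 in FBR and -2.28 in in vitro activated cells. It was -3.01 for Cd86 (adjusted p = 0.0005), with changes of -1.29 and 1.72 in opposite directions. It was 3.75 for Icoslg (adjusted p = 3.5e-05), with changes of 1.41 and -2.34, also opposite. All 3 differences between FBR and in vitro activated cells were called under each of 21 alternatives. The changes between FBR and blood, on which the opposite directions rest, were less stable. For Cd86 that change lost its call in 8 of the 21. For Icoslg it was -0.21 on the second probe set (limma adjusted p = 0.66).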

How the results depend on the processing

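The counts of called ligand genes upon in vitro activation (3) and between FBR and in vitro activated cells (3) kept within 1.5 times under all 21 alternatives, with 3 to 4 and 3 to 3 when single arrays were left out. Between FBR and blood the count of 2 was 1 with each gene's probe sets averaged, a pseudocount of 1, quantile normalization, restored values left missing and a threshold of 0.01, and 1 to 2 when single arrays were left out, being 1 without FBR replicate 2, FBR replicate 3 or blood replicate 1. Median centring gave 2, Icoslg and Cd83, both higher in FBR cells.

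Direction turned only for differences that were not called. Between FBR and blood, Cd40 was -0.14 with restored values left missing and -0.05 to 0.49 with single arrays left out, the second Icoslg probe set was 0.16 with median centring and 0.20 with quantile normalization, and Cd48 was 0.34 with median centring and -0.24 to 0.17 with single arrays left out. Upon in vitro activation, Cd80 was -0.68 to 0.35 with single arrays left out. Cd48 was -0.12 with array weights, -0.24 with quantile normalization, -0.33 with restored values left missing and -0.20 to 0.18 with single arrays left out. Between FBR and in vitro activated cells, Cd83 was -0.14 with array weights, -0.26 with quantile normalization and -0.39 to 0.26 with single arrays left out, and Cd48 was 0.05 with array weights, 0.31 with median centring, 0.30 with restored values left missing and -0.21 to 0.16 with single arrays left out. The cause was not tested. Leaving restored values missing takes values out of the fit, and it gave fewer calls in the gene lists, with 0 turnover genes called between FBR and blood.

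The replicate block gave the same counts of ligand genes (3, 2 and 3). Arrays with the same number deviated from their group means with correlations of -0.065 to 0.07, and arrays with different numbers of -0.044 to 0.077, so the numbers were taken as names only. Of 1867 alternative values of the named list genes, 1749 kept their call, 118 lost it and 0 turned direction. Dim genes such as Cd80, and Icoslg in the in vitro activated cells, lie where the pseudocount sets the size of a change.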

Other observations

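Of 13 measured genes of dendritic cell maturation, 2 were higher and 4 lower upon in vitro activation, 4 higher and 2 lower in FBR cells than in blood, and 5 higher and 3 lower in FBR cells when set against the in vitro activated cells. Without in vitro activated replicate 2, 2 were lower upon activation, and without FBR replicate 1 or 2 or blood replicate 1 or 3, 1 was lower in FBR cells than in blood. Over all genes, 15.4% were higher and 12.2% lower upon activation. In FBR cells the shares were 14.6% and 19.2% against blood, and 8.88% and 16.7% against in vitro activated cells. Ebi3, a subunit of interleukin-27, was 634 to 1559 in blood, 2466 to 5741 in the in vitro activated and 17638 to 25634 in FBR cells, higher than in blood by 1.84 and 4.54 on the log2 scale (limma adjusted p = 0.0084 and 3.5e-05). Il23a, the p19 subunit of interleukin-23, was higher in FBR cells than in blood by 2.73 (limma adjusted p = 9.8e-05). The chemokine gene Ccl22 was higher upon activation by 3.22 (limma adjusted p = 0.00019), from 8.29 to 33.6 in blood to 278 to 456. Between FBR and in vitro activated cells Ccl22 differed by -1.80 (limma adjusted p = 0.0059). The chemokine gene Ccl17 went the other way, at -2.81 upon activation and 2.84 between FBR and in vitro activated cells (limma adjusted p = 0.01 and 0.011). Only 2 in vitro activated arrays had a usable Ccl17 value. Lamp3, a lysosomal protein of mature dendritic cells, was 1263 to 1654 in blood and at most 88.0 elsewhere, lower, at log2 fold changes of -4.65 and -5.39 (limma adjusted p = 0.00013 and 3.4e-05).

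Of 8 measured receptors that bind the ligands on T cells, 1 was higher and 2 lower upon activation, and 0 were higher and 2 lower in FBR cells than in blood. Without blood replicate 3, 1 was lower upon activation and 0 in FBR cells, where 1 was lower without FBR replicate 2 or blood replicate 2. Over all genes, 15.4% were higher and 12.2% lower upon activation, and 14.6% and 19.2% in FBR cells against blood. Icos, the receptor of ICOS ligand, was 397, 827 and 486 in blood and 1872, 1710 and 973 after in vitro activation, a log2 difference of 1.40 (limma adjusted p = 0.013). It was not called when the probe sets of the gene were averaged or the restored values left missing (adjusted p = 0.081 and 0.28). On those in vitro activated arrays the T cell marker Cd3e stood at 4.12 to 13.3, but Cd3g at 90.2 to 292 and Lef1 at 351 to 684. Of the 14 T cell markers, 8 were lower than in blood there and Lef1 was not called (0.04). Which cells carried the Icos signal was not tested.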
